A study of Drosophila melanogaster with 13 samples.

Results

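Ect3 (ectoderm-expressed 3, FBgn0260746) is annotated on the plus strand of chromosome arm 3R at chr3R:11999278-12003516 of dm6, the release 6 assembly of the Drosophila melanogaster genome. The members described here are the sequence variants that the deposited tables list inside these bounds. They are 62 sites, of 1679136 sites listed in the 9 tables together and 378823 on 3R. For each site the frequency of the alternative allele, the allele that differs from the reference genome, was followed as its share of the reads in 12 pools of flies. All pools are of 100 whole adult females, which carry 200 chromosomes, and each population is represented by 1 pool.

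The flies come from a selection experiment for ectopic veins (EV), pieces of extra wing vein. D907 is 1 inbred wild type line. Mix is an outbred population obtained by crossing the inbred lines D208, D437, D820 and D907, and it was selected in 2 experiments. By the paper's methods the second was begun generations after the first, and each has its own pool of ancestral flies. For D907 and for each Mix experiment there are 4 populations: the ancestral population (P0), control flies kept at 25 °C without selection, assimilated flies selected for EV first with a heat shock of the pupae and then without it, and nonassimilated flies selected for EV without heat shock and derived from the control. The control, assimilated and nonassimilated pools of 1 line or experiment are compared with the same P0 pool.

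Ect3 is predicted to encode an enzyme of the beta-galactosidase family. Such enzymes are glycosidases that cut galactose from the ends of sugar chains, many of them in the lysosome. The gene spans 4239 bases with 5 exons and 1 annotated transcript of 637 codons, the stop codon not counted. It lies inside a long intron of Tk, which is read from the opposite strand and encodes the precursor of the tachykinin neuropeptides.

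Of the 62 sites, 4 lie in the 5′ UTR in exon 1, 37 in introns and 21 in coding sequence, and the 3′ UTR holds none. Intron 1, which is 1769 bases long, holds 30 of the intronic sites, and exon 5 holds 13 of the coding sites. Among the coding sites 18 fall on the third base of a codon, 2 on the first base and 1 on the second. Allele bases are not part of the tables, so it is not known which sites change an amino acid or which are insertions or deletions. A table lists between 26 and 61 of the sites, and 25 sites are listed in all 9 tables. The reads at a single Ect3 site number between 32 and 133 per pool. The pools' median depths over all listed sites lie between 75 and 87 reads.

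The reference sequence around 6 sites on which the comparisons turn is given here on the plus strand, 5′ to 3′, from the RefSeq copy of the release 6 assembly, with the base at the site in capitals. These sites were fixed, or nearly fixed, for the same allele in the assimilated flies of D907 and in both selected populations of Mix experiment 2.
intron 1, chr3R:11999560-11999580, site 11999570: agttaagcggAacacgcagtg
intron 1, chr3R:12000352-12000372, site 12000362: gaagagcaaaCaaatggtgcc
exon 2, codon 3, chr3R:12001208-12001228, site 12001218: gaatgaagttCagtgtggtgg
exon 2, codon 58, chr3R:12001373-12001393, site 12001383: ccacctggcaAaggcatctta
exon 4, codon 215, chr3R:12001974-12001994, site 12001984: ccaacgatggAcccagtgtgc
intron 4, chr3R:12002201-12002221, site 12002211: tccaatttggTttgggcattg

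The first question was how Ect3 alleles changed from P0 within the inbred line. D907 was not uniform at Ect3. Of the 35 sites listed for D907, 30 carried both alleles in P0, each on at least 10% of the reads. The alternative allele at these 30 sites had a mean frequency of 47.3% ± 5.01 (SD over sites) in P0, 53.4% ± 6.52 in control flies and 55.4% ± 6.94 in nonassimilated flies. In assimilated flies 21 of the 30 sites are listed, and at all 21 only 1 allele was left, the alternative at 6 sites and the reference at 15.

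The coding site 12001984 shows the pattern in single pools. The alternative allele was on 58 of 107 reads in D907 P0 (54.2%, 95% Wilson interval 44.8% to 63.3%), on 48 of 109 in control flies and on 37 of 84 in nonassimilated flies. It was on all 94 reads of the assimilated flies. The assimilated pool stands apart from the other D907 pools, which overlap in their intervals. Against P0 the adjusted p was 3.33e-11 (two-sided Fisher's exact test on the reads of the 2 pools, Bonferroni over all sites of the table). At site 12002340 in exon 5 the alternative allele went the other way, from 51 of 89 reads in P0 to 0 of 68 in assimilated flies, a count of 0 that allows a frequency of up to 4.41% (adjusted p 4.29e-11, Fisher's exact test). In control flies it was on 44 of 88 reads and in nonassimilated flies on 60 of 93. The depth of 68 is given for assimilated flies at every listed exon 5 site, so this count and its limit are not independent of theirs.

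Changes with an adjusted p below 1e-05 were called. In D907 assimilated flies 18 of 26 Ect3 sites were called, where 4.38% of all sites of that table were. Sites with both alleles in P0 made up 19.7% of the whole table, against 80.8% at Ect3 and 60.3% on 3R. Among the sites that carried both, 18 of 21 were called at Ect3 (85.7%), 28.9% on 3R and 22.1% over all arms. These called shares depend on the frequency in P0. At the median Ect3 depths the loss of an allele at 0.3 in P0 could not be called, and that of an allele at 0.5 could. The shares of such sites fixed in assimilated flies, as defined below, lay closer together. They were 100% at Ect3, 84.2% on 3R and 66.3% over all arms. All 11 coding sites listed for D907 assimilated flies were called, with a mean absolute change of 45.7 ± 4.25 percentage points (SD over sites). Of 15 intronic sites 7 were called. In D907 control flies 0 of 35 sites were called (4 at an unadjusted p below 0.05), beside 0.0379% of all sites. In nonassimilated flies 0 of 35 were called (9 at an unadjusted p below 0.05), beside 1.84% of all sites. The smallest unadjusted p were 0.00266 in control flies, at 12002724 in exon 5, where the alternative allele was on 47 of 110 reads in P0 and on 66 of 104 in control flies, and 0.00492 in nonassimilated flies, at 12000955 in intron 1, with 37 of 81 and 59 of 87 reads. Next to these stood 12002752 in control flies, with 40 of 94 and 68 of 108 reads, and 12000958 in nonassimilated flies, with 37 of 80 and 57 of 86. The mean absolute change over Ect3 sites was 38.5 ± 17.8 points in assimilated flies, 8.61 ± 4.96 in control flies and 9.90 ± 6.12 in nonassimilated flies. With the reads scaled down to the number that 200 chromosomes can support, 2 of the 18 sites stayed called in assimilated flies.

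Tested against each other, the assimilated and nonassimilated pools of D907 differed at 21 of 26 Ect3 sites, where 1.12% of all shared sites differed. Unlike those of Ect3, most sites of the whole tables did not carry both alleles in P0. No share over the sites that did was taken for this comparison. Fixation in assimilated flies was common on 3R. A site is called fixed here when one allele had 98% of the reads or more. Of the sites of the arm with both alleles in D907 P0, assimilated flies had fixed 84.2% and nonassimilated flies 64.6%. Within 2000 kb on each side of Ect3 the shares were 97.5% and 0.133%. The absence of fixation in nonassimilated flies at Ect3 was thus shared by a long stretch of 3R around it.

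**Figure D1:**
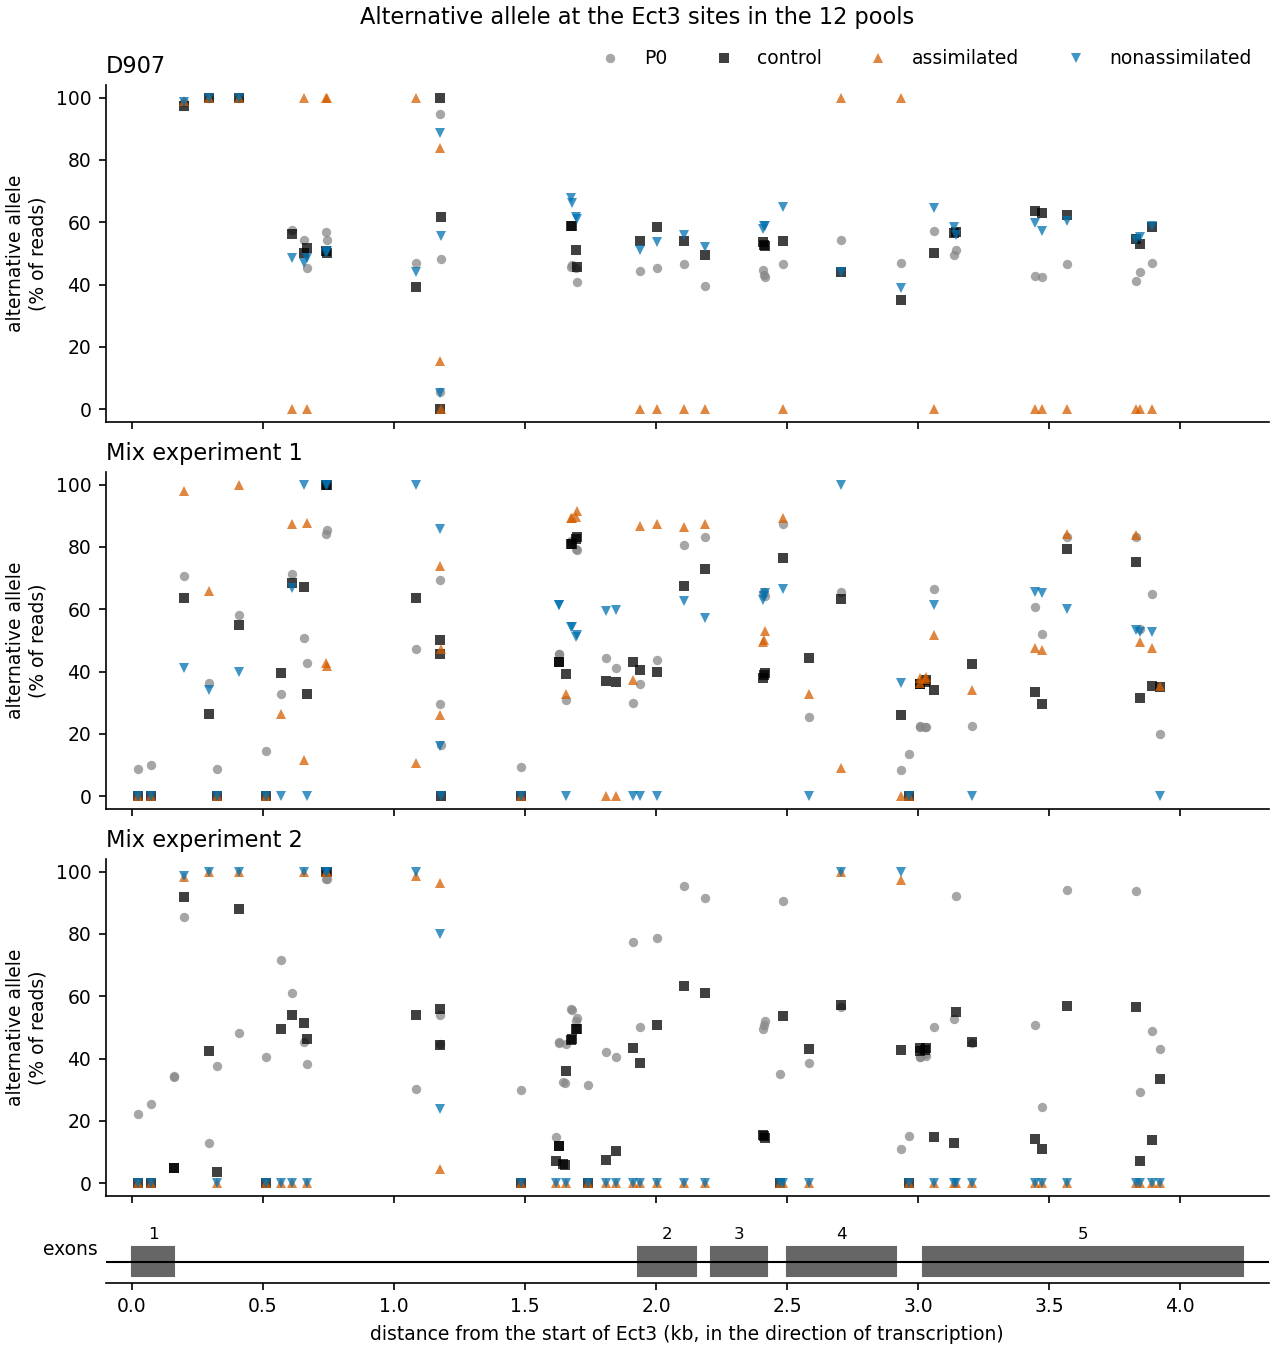
Frequency of the alternative allele (% of reads, vertical axes) at each Ect3 site against its distance from the start of the gene (kb), in 1 panel per line or experiment, with 1 symbol per pool and the 5 exons below. In D907 the assimilated pool sits at 0% or 100% at the 21 sites where the other 3 pools lie between 35.2% and 64.8%, and in Mix experiment 2 both selected pools sit at or near 0% or 100% at most sites.

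Apart from these, 3 sites of intron 1 carried the alternative allele on nearly all D907 reads in all 4 pools, with frequencies of at least 97.4%. Another 9 sites with both alleles in D907 P0 are listed for control and nonassimilated flies but not for assimilated flies. The remaining D907 sites, 12000452 and 12000453, adjoin a run of A in the reference (site 12000452: gctgtggaaaTgaaaaaaaaa). In D907 P0 the alternative allele was on 4 of 70 reads at the first and on 71 of 75 at the second. Neither was called in any of the comparisons with P0. Site 12000458, which carried both alleles in D907 P0, lies inside this run of A. Its alternative allele was on 40 of 83 reads in D907 P0 and on 0 of 66 in assimilated flies. This change was called (adjusted p 2.86e-07, Fisher's exact test). The site also enters the counts between selected pools of D907 and Mix experiment 1, and the comparison of D907 and Mix alleles below.

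The second question was whether the outbred Mix population moved at Ect3 in the same way. The P0 pools of the 2 experiments, which were begun generations apart, were compared first. Of 52 sites listed for both, 0 were called different (31 at an unadjusted p below 0.05, Fisher's exact test), beside 2.32% of all sites, and the mean absolute difference was 16.1 ± 9.89 points (SD over sites). The smallest adjusted p was 9.50e-05, at site 12001190 of intron 1, with the alternative allele on 27 of 90 reads in experiment 1 and on 72 of 93 in experiment 2.

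In Mix experiment 2 both selected populations were almost without variation at the 44 Ect3 sites listed for them. For control flies 61 sites are listed, and sites not listed for the selected flies have no value there. Assimilated flies had fixed 41 of the 44 listed sites and nonassimilated flies 42. The 2 pools shared 41 fixed sites, with the same allele at each. Of the sites with both alleles in P0, assimilated flies had fixed 91.7% at Ect3, 67.9% on 3R and 58.5% over all arms, and the shares in nonassimilated flies were 94.4%, 96.3% and 69.1%. Ect3 thus lay above its arm in assimilated flies and close to it in nonassimilated flies. Against P0, 24 of 44 sites were called in assimilated flies, beside 26.2% of all sites, and 23 of 44 in nonassimilated flies, beside 20.4%. The mean absolute changes were 49.7 ± 26.0 and 49.0 ± 26.6 points, where the means over all sites of the tables were 29.8 and 24.8. At sites with both alleles in P0 Ect3 was close to its arm. There the means were 45.2 at Ect3 and 42.6 on 3R in assimilated flies, and 44.3 and 47.2 in nonassimilated flies. Among sites with both alleles in P0 18 of 36 were called at Ect3 in assimilated and 17 of 36 in nonassimilated flies, and the called shares of 3R were 44.8% and 52.1%. Between the selected pools 0 of 44 sites were called different (2 at an unadjusted p below 0.05), although 18.8% of all shared sites were. The mean absolute difference between them was 0.912 ± 3.79 points. The 3 sites not fixed in both are 12002211, at 97.3% in assimilated flies, and the pair 12000452 and 12000453 beside the A run.

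Among the largest changes of experiment 2 were losses of an allele that had been common in P0. At codon 58, site 12001383, the alternative allele was on 102 of 107 reads in P0 (95.3%, Wilson interval 89.5% to 98.0%) and on 57 of 90 in control flies. Assimilated flies had it on 0 of 72 reads and nonassimilated flies on 0 of 58, which allows frequencies of up to 4.17% and 5.17%. Both depths are also given for neighbouring sites. The adjusted p was 1.42e-38 for assimilated and 3.97e-33 for nonassimilated flies (Fisher's exact test). The next named site, 12001464 in intron 2, fell by 91.4 points in assimilated flies, from 96 of 105 reads to 0 of 72.

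Other alleles went from rare to fixed or nearly fixed. At 11999570 in intron 1 the alternative allele, the one fixed in D907, was on 14 of 108 reads in P0 (13.0%), on 34 of 80 in control flies, on all 80 in assimilated flies and on all 91 in nonassimilated flies. The adjusted p for nonassimilated flies was 6.80e-36 and for assimilated flies 1.31e-32 (Fisher's exact test). At 12002211 in intron 4 it was on 9 of 82 reads in P0, 32 of 75 in control flies, 72 of 74 in assimilated and 80 of 80 in nonassimilated flies. In both cases the control pool lies between P0 and the selected pools, though neither change in control flies was called.

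Mix experiment 1 gave a different picture in its assimilated flies. The test called 4 of 51 sites, beside 14.2% of all sites, and 11 were fixed. Of the sites with both alleles in P0, 14.9% were fixed at Ect3, 21.6% on 3R and 37.9% over all arms. The mean absolute change was 18.2 ± 15.2 points, under the mean of 22.7 over all sites of the table. In nonassimilated flies 5 of 49 sites were called, beside 21.4% of all sites, 21 were fixed, and the mean absolute change was 20.0 ± 12.6 points, with 26.5 over all sites. Of the sites with both alleles in P0, 18 of 45 were fixed here at Ect3, and the fixed shares were 50.5% on 3R and 48.0% over all arms. In each case the called share at Ect3 was below that of its table. Among sites with both alleles in P0, assimilated flies had 8.51% called at Ect3, 9.94% on 3R and 17.5% over all arms. In nonassimilated flies these shares were 11.1%, 29.0% and 25.8%. Ect3 was thus near its arm in assimilated flies and below it in nonassimilated flies. With effective reads, as above, 1 and 0 sites were called.

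The sites called in assimilated flies of experiment 1 were 11999686 and 12001088 in intron 1, 12001218 in exon 2 and 12001984 in exon 4. At 12001984 the alternative allele was on 55 of 84 reads in P0, 64 of 101 in control flies, 10 of 110 in assimilated flies and 104 of 104 in nonassimilated flies. The selected pools lie on opposite sides of P0 and control, and neither overlaps with them. The adjusted p was 5.96e-11 for assimilated and 3.43e-06 for nonassimilated flies against P0, and 6.83e-44 between the selected pools (Fisher's exact test). At codon 3, site 12001218, it was on 34 of 94 reads in P0, 39 of 96 in control flies, 91 of 105 in assimilated flies and 0 of 89 in nonassimilated flies. The adjusted p was 1.35e-07 and 5.44e-06 against P0. At 11999686 it rose from 53 of 91 reads to all 97 in assimilated flies (adjusted p 8.25e-09), and at 12001088 it fell from 35 of 79 to 0 of 70 (adjusted p 3.51e-06, Fisher's exact test).

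The nonassimilated flies of experiment 1 were called at 11999934, 12000362, 12001218, 12001281 and 12001984. At 12000362 in intron 1 the alternative allele was on 34 of 72 reads in P0, 40 of 63 in control flies, 9 of 84 in assimilated flies and all 71 in nonassimilated flies. At 12001281, codon 24 in exon 2, it was on 42 of 96, 37 of 93, 90 of 103 and 0 of 89 reads in the same order. At both sites nonassimilated flies were fixed and assimilated flies lay on the other side of P0, which was not called against P0 (adjusted p 0.733 and 5.37e-05, Fisher's exact test). In all, the selected pools of experiment 1 differed at 16 of 47 sites, beside 23.9% of all shared sites, with the alternative allele higher in assimilated flies at 8 of them and lower at 8.

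**Figure D2:**
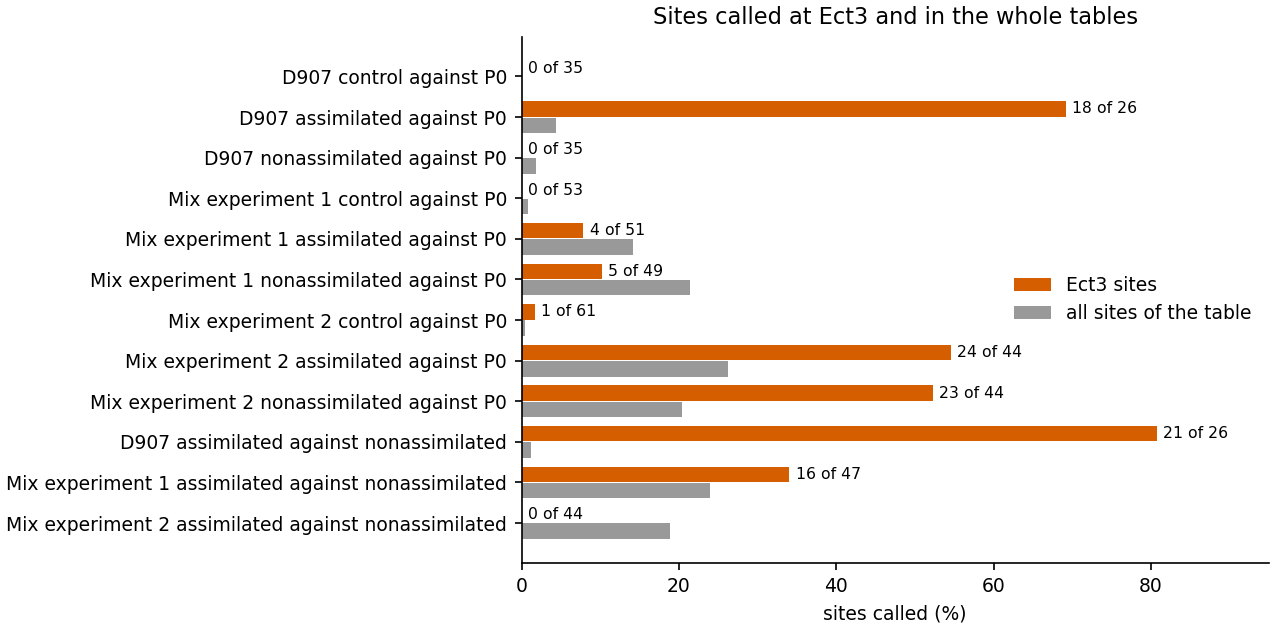
Share of sites called at an adjusted p below 1e-05 (%, horizontal axis) for each comparison of pools, at Ect3 and over all sites of the same table, with the number of Ect3 sites called beside each bar. The Ect3 share is above that of the table in D907 assimilated flies (18 of 26) and in both selected pools of Mix experiment 2, and below it in both selected pools of Mix experiment 1.

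Few changes were called in the Mix control flies, but their sizes were not always smaller than in selected flies. In experiment 1, 0 of 53 sites were called (25 at an unadjusted p below 0.05, Fisher's exact test), beside 0.75% of all sites, with a mean absolute change of 12.5 ± 7.96 points, where the mean over all sites was 11.7. At the coding sites of experiment 1 control flies had a mean of 17.4 ± 9.58 points, assimilated flies one of 16.9 ± 15.9 and nonassimilated flies one of 17.3 ± 13.7. The smallest unadjusted p there were 3.35e-06 at 12002340, where the alternative allele went from 69 of 104 reads to 39 of 114, and 3.05e-05 at 12003170. In experiment 2, 1 of 61 sites was called and 37 had an unadjusted p below 0.05, beside 0.356% of all sites called. The mean absolute change of 21.3 ± 14.0 points was above the 11.6 over all sites, and also above the means of both selected pools of experiment 1. The called site was 11999790 in intron 1, where the alternative allele was on 36 of 89 reads in P0 and on 0 of 77 in control flies (adjusted p 3.70e-06). At 12001749 in intron 3 it went from 28 of 80 reads to 0 of 81, which was not called (adjusted p 2.13e-04).

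Site 11999790 belongs to a group of 5 sites whose alternative allele was read in both Mix P0 pools and in none of the 6 derived Mix pools, control flies included. The others are 11999300 and 11999351 in the 5′ UTR, 12000762 in intron 1 and 12002244 in intron 4. Their mean frequency was 11.3% ± 2.66 (SD over sites) in P0 of experiment 1 and 26.6% ± 9.35 in P0 of experiment 2. They make up 12.8% of the 39 Ect3 sites listed in all 6 Mix tables. With a frequency of at least 5% in both P0 pools as the rule, such sites make up 0.940% of all sites listed in the 6 tables and 2.03% of those on 3R. No test was made of this difference, since linked sites are not replicates. None of the 5 is listed for D907.

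The question whether the experiments moved together was answered in the sites listed for both. In assimilated flies 2 of 39 sites were called in the same direction in both experiments, beside 4.15% of all sites, and 2 were called in opposite directions, beside 1.03% of all sites. The first are 11999686 and 12001088, and the second are 12001218 and 12001984. At 12001984 the alternative allele fell by 56.4 points in experiment 1 and rose by 43.5 in experiment 2. Over all 39 sites, called or not, the change had opposite signs at 20 (51.3%), where the share was 15.3% on 3R and 29.5% over all arms. In nonassimilated flies 5 of 39 sites were called in the same direction, beside 7.58% of all sites, and 0 in opposite directions, beside 1.6%. The signs were opposite at 7 (17.9%), where the shares were 16.8% on 3R and 36.1% over all arms. In control flies 0 of 52 sites were called in the same direction, beside 0.0213%, and 0 in opposite directions, beside 0.0042%. Linked sites are not independent, so the shares of signs were not tested.

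The difference between the experiments was also tested itself, by the homogeneity of the odds ratios (Woolf's test, with 0.5 added to each count, Bonferroni over the shared sites). In assimilated flies it was called at 1 of 39 sites, beside 0.644% of all sites, and 29 sites had an unadjusted p below 0.05. The site is 12000362 (adjusted p 1.06e-06), where the alternative allele went from 34 of 72 to 9 of 84 reads in experiment 1 and from 33 of 109 to 76 of 77 in experiment 2. At 12001218 and 12001984 the adjusted p of this test was 0.482 and 0.178. There experiment 2 assimilated flies had reads of 1 allele only. The 0.5 then stands in for the missing count and widens the error of the odds ratio. The test has little power at such sites, so an uncalled site does not show that the experiments moved alike. In nonassimilated flies 0 of 39 sites differed (17 at an unadjusted p below 0.05), beside 0.245%, and in control flies 0 of 52 (16 below 0.05), beside 0.00635%. With the experiments as strata (Cochran-Mantel-Haenszel test), 13 of 39 sites were called in assimilated flies, 20 of 39 in nonassimilated flies and 1 of 52 in control flies, beside 25.4%, 23.6% and 1.18% of all sites. With 2 experiments an exact permutation test over populations cannot give a two-sided p below 0.5, so all tests here compare pools.

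**Figure D3:**
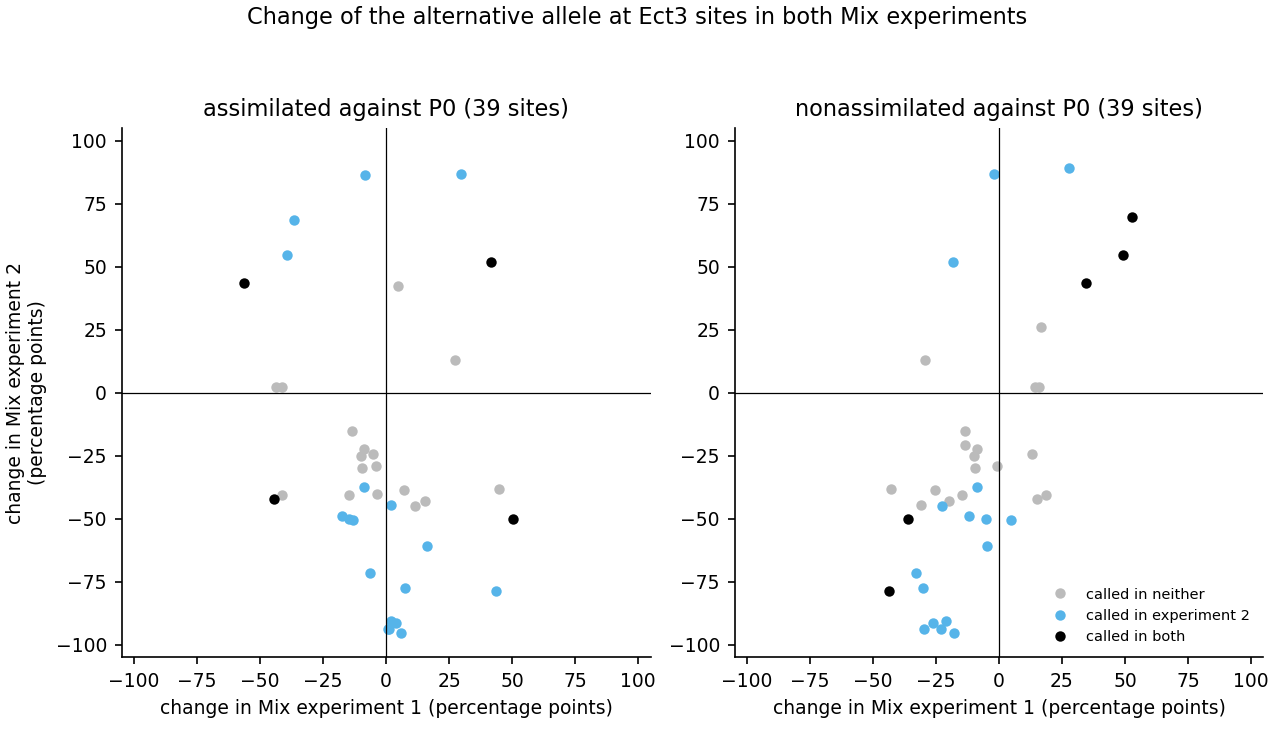
Change of the alternative allele from P0 in Mix experiment 1 (horizontal axis) and experiment 2 (vertical axis), both in percentage points, with 1 point for each of the 39 Ect3 sites listed in both tables and the colour giving the experiments in which it was called. In assimilated flies 20 sites lie in the quadrants of opposite directions, and in nonassimilated flies 7 do.

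The alleles of D907 and Mix can be set side by side at the 21 sites where D907 assimilated flies had lost 1 of the 2 alleles. The allele left in D907 assimilated flies was followed in all pools; it was chosen from that pool, and its frequencies are given as a description. It had a mean frequency of 53.3% ± 4.80 (SD over the 21 sites) in D907 P0, 44.0% ± 5.12 in D907 control and 44.5% ± 4.81 in D907 nonassimilated flies. In Mix experiment 2, where 20 of the sites are listed, it went from 42.1% ± 29.7 in P0 and 63.2% ± 22.2 in control flies to 99.8% ± 0.657 in assimilated and 100% in nonassimilated flies. It was higher than in P0 at all 20 sites in both selected populations of experiment 2.

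In Mix experiment 1 the same allele had a mean frequency of 43.6% ± 24.1 in P0, 57.3% ± 25.4 in control flies, 25.9% ± 19.2 in assimilated flies and 65.4% ± 31.0 in nonassimilated flies. It was lower than in P0 at 16 of 21 sites in assimilated flies and higher at 19 of 21 in nonassimilated flies. The nonassimilated sites formed separate levels. At 9 sites this allele was fixed, and at the other 12 it lay between 33.3% and 47.3%. In assimilated flies of experiment 1 it was fixed at no site, lay between 0% and 52.9%, and was absent at 12002211, where 0 of 104 reads carried it (upper limit 2.88%). In control flies it was higher than in P0 at 19 of 21 sites in experiment 1 and at 19 of 20 in experiment 2.

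**Figure D4:**
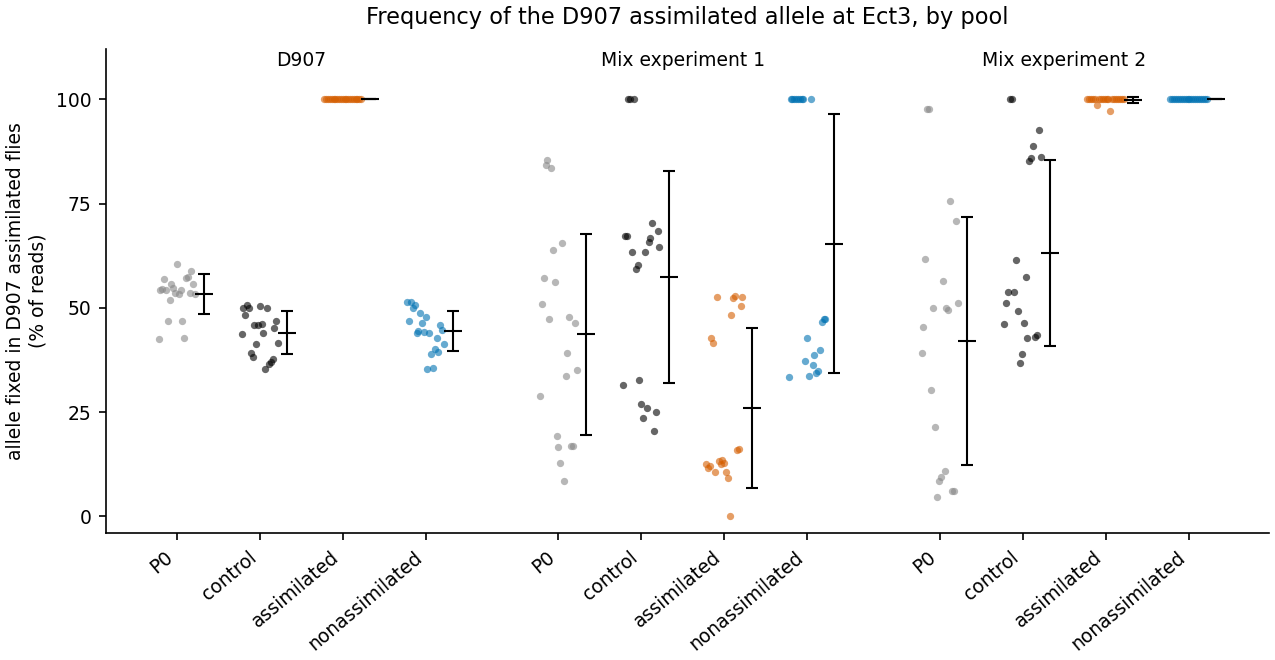
Frequency of the allele left in D907 assimilated flies (% of reads, vertical axis) in each of the 12 pools, with 1 point per site and the mean and SD over sites as the bar beside it. All points of D907 assimilated and Mix experiment 2 assimilated and nonassimilated flies lie at 97.3% or above, while Mix experiment 1 assimilated flies lie at 52.9% or below.

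The 11 coding sites listed in all tables lie in exon 2 (12001218, 12001281 and 12001383), exon 4 (12001984) and exon 5 (12002340, 12002724, 12002752, 12002847, 12003111, 12003126 and 12003170). In exon 5 the reference allele was on all reads of D907 assimilated flies and of both selected populations of Mix experiment 2 at each of the 7 sites. In Mix experiment 1 the exon 5 sites fell into 2 sets in assimilated flies. The reference allele lay between 48.2% and 52.9% at 12002340, 12002724, 12002752, 12003126 and 12003170, and at 15.8% and 16.2% at 12002847 and 12003111. In nonassimilated flies of experiment 1 it lay between 34.5% and 47.3% at all 7, with no gap between these sets.

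Of the 27 sites not listed for D907, 14 are listed in all 6 Mix tables, and the following values are of these 14. Their alternative allele had a mean frequency of 22.3% ± 12.2 (SD over sites) in P0 of experiment 1 and 41.0% ± 16.9 in P0 of experiment 2. In the selected pools of experiment 2 no read carried it at any of the 14 sites. Experiment 1 had 12 such sites in nonassimilated and 8 in assimilated flies, and the control flies had 6 in experiment 1 and 5 in experiment 2. The exceptions in nonassimilated flies of experiment 1 are 12001088 and 12001126, at 59.6% and 59.8%, both absent from assimilated flies.

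The changes at Ect3 were part of longer stretches of 3R. In the 5 kb upstream of the gene 40 of 63 sites were called in D907 assimilated flies and in the 5 kb downstream 18 of 40. For Mix experiment 2 the upstream counts were 40 of 69 in assimilated and 41 of 69 in nonassimilated flies, and the downstream counts 16 of 59 and 18 of 59. Within 2000 kb on each side, assimilated flies of experiment 2 had fixed 98.1% of sites with both alleles in P0 and nonassimilated flies 98.0%. The shares in experiment 1 were 23.0% and 36.0%.

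**Figure D5:**
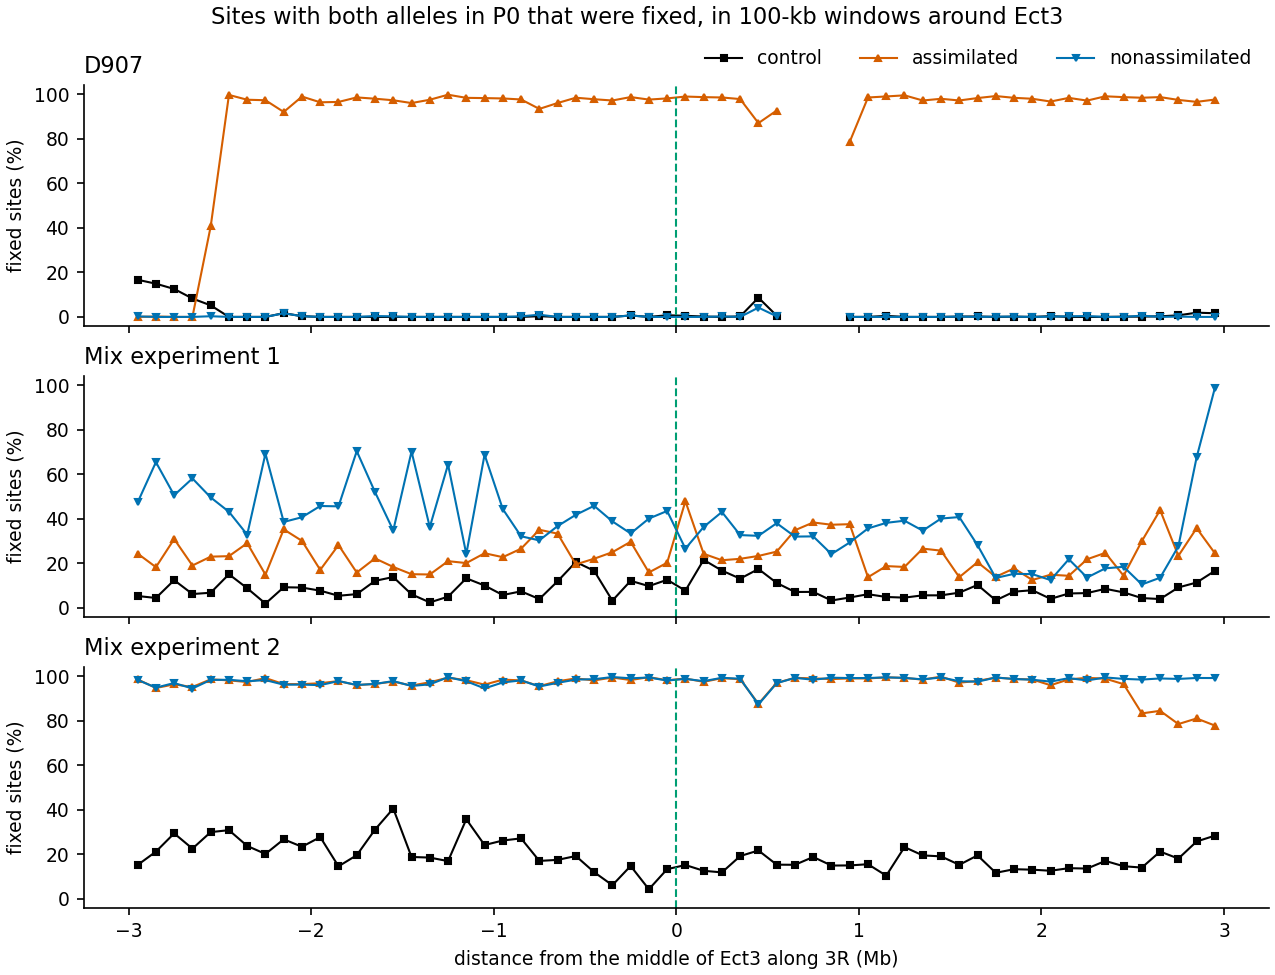
Share of sites with both alleles in P0 that were fixed in each derived pool (%, vertical axes), in windows of 100 kb against the distance from the middle of Ect3 along 3R (Mb, horizontal axis), with 1 panel per line or experiment; windows with fewer than 10 such sites are left out. Around Ect3 (dashed line) nearly all such sites were fixed in D907 assimilated flies and in both selected pools of Mix experiment 2, and almost none in D907 control and nonassimilated flies.

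Genes were taken as annotated, and the annotation counts some copies of transposable elements among them. Among the 7372 genes with at least 10 listed sites in each table, Ect3 had a larger mean absolute change than 98.7% in D907 assimilated flies, 86.0% in Mix experiment 2 assimilated flies and 88.8% in Mix experiment 2 nonassimilated flies. Among the 1868 such genes of 3R the shares were 95.1%, 75.6% and 62.3%. Control flies ranked above the selected flies of the same experiment in both Mix experiments, and below assimilated flies in D907. D907 nonassimilated flies stood above 82.5% of all genes and 33.4% of those on 3R. Mix experiment 2 control flies stood above 92.1% of all genes and 88.4% of those on 3R, D907 control flies above 93.5% and 78.2%, and Mix experiment 1 control flies above 70.5% and 91.8%. In the selected flies of Mix experiment 1 the mean at Ect3 was larger than in 35.9% of all genes in assimilated and 28.0% in nonassimilated flies. Among genes of 3R these shares were 42.8% and 25.6%. For D907 the median gene changed by 0.122 points in assimilated flies. Over the 9 mean absolute changes, the genes of 3R with the most similar values by Euclidean distance were Tk (10.7 points), CG5342 (11.0), CG31358 (11.7), IFT54 (11.7) and CG14855 (11.8). The sites of Tk include those of Ect3. On the other arms the nearest were Muc30E (34.3), CG42570 (38.5), PMCA (40.7) and a pair of annotated transposable elements (37.5 and 38.4). All of these lie farther from Ect3 than the named genes of 3R.

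Within 5 kb of Ect3 the annotation holds Tk and KLHL18, which encodes a protein of the Kelch family. In D907 assimilated flies 62 of 101 Tk sites were called and 1 of 9 KLHL18 sites. The Tk counts of Mix experiment 2 were 71 of 132 in assimilated and 72 of 132 in nonassimilated flies, and 0 of 19 KLHL18 sites were called in either (Fisher's exact test). Experiment 1 gave 6 of 17 called KLHL18 sites in assimilated flies and 0 of 17 in nonassimilated flies.

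Glycosidases act together in the lysosome and in digestion, and 19 genes of this kind from across the genome were listed for comparison, among them Gal (a beta-galactosidase), Gba1a and Gba1b (glucocerebrosidases), Hexo1, Hexo2 and fdl (hexosaminidases), Fuca (a fucosidase), tobi (an alpha-glucosidase) and the lysosomal alpha-mannosidases LManI to LManVI. The list also holds Sgsh, which is a sulfatase. Genes with at least 1 called site numbered 4 of 18 in D907 assimilated flies (Gba1a, Gba1b, tobi and Sgsh, all on 3R) and 3 of 18 in D907 nonassimilated flies, beside 12.3% and 7.80% of all genes with sites. In Mix experiment 1 they were 8 of 19 in assimilated and 13 of 19 in nonassimilated flies, beside 50.9% and 61.6%. Experiment 2 gave 12 and 11 of 19, beside 59.0% and 45.7%. In the control flies of D907 and of both Mix experiments none of the list had a called site, beside 0.428%, 8.60% and 5.74% of all genes.

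Gal, the list's beta-galactosidase, lies on 2L and moved unlike Ect3 in Mix experiment 2. In each of the D907 comparisons it had 0 of 16 called sites and a mean absolute change of 0 points. With no change of frequency at all in this inbred line, the D907 counts cannot show whether Gal moves like Ect3. The Gal counts of Mix experiment 1 were 12 of 35 called sites for assimilated flies and 4 of 40 for nonassimilated flies, and the mean absolute changes were 26.8 and 18.8 points. In Mix experiment 2 nonassimilated flies 0 of 58 were called, with a mean absolute change of 11.6 points, where Ect3 had 49.0. Tobi, on 3R, had 4 of 4 sites called in both selected populations of experiment 2, with mean absolute changes of 71.5 and 82.1 points.

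The depth limits these calls. At the median depths of the Ect3 sites, an allele at a frequency of 0.3 in P0 could not pass the threshold in any of the 9 comparisons even if no read carried it afterwards. Of the 62 sites 14 lie within 10 bases of the site before and can share reads. Where a pool had reads of the reference allele only, the same depth was often given for neighbouring sites, at 73 of 121 such values against 32 of 426 others, so these depths are not independent from site to site. The same holds for the counts of 0, upper limits and p-values that rest on them. Whether such depths were counted at each site is not known. A share of reads estimates the frequency in 200 chromosomes, and intervals and upper limits cover counting error only.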

How the data were processed

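Genomic DNA of pooled females was sequenced (Pool-seq), and reads were aligned by the authors to dm6 with BWA and variants called with GATK (versions and site filters not given in the sources used here). The deposited tables give, per site, the read counts of the reference and alternative allele in P0 and in 1 derived pool, not normalized, together with the authors' p-value, rank and q-value, which were not used. The D208 pool was not analysed here. P0 counts were the same in all tables of a line. Sites were placed with the Ensembl release 115 annotation, whose gene bounds equal those of RefSeq.

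At each site a two-sided Fisher's exact test compared 2 pools, with Bonferroni's correction over the whole table (called below 1e-05). Reads are treated as independent, and each population is 1 pool, so no spread between replicate populations was measured. A site absent from a table was not tested. Mix pools are paired by experiment number, because the P0 pools differ between experiments. Named sites are, per comparison with P0, the 2 with the smallest p, all called sites where there were 5 or fewer, and the coding sites listed in all tables; other sites were chosen after their values were seen. The gene and its lists were chosen with earlier results of these data known. Fisher's and Woolf's tests were tested on simulated data, and the stratified test was checked against another implementation on the real read counts. Alternatives were other thresholds and corrections, at least 30 reads, effective reads, control in place of P0, wider bounds and other summaries. Python 3.11.15, NumPy 2.4.6, SciPy 1.17.1, Numba 0.67.0 and Matplotlib 3.10.9 were used.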

Additional observations from a re-analysis of the deposited data

Results flagged for a closer look

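The change from P0 differed between assimilated and nonassimilated flies, tested pool against pool by Fisher's exact test, at 21 Ect3 sites in D907 and at 16 in Mix experiment 1. In assimilated flies the change from P0 differed between the Mix experiments at 1 site, 12000362, by Woolf's test. This test has little power at sites where a pool was fixed. No group held enough pools to look for one that stands apart.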

How the results depend on the processing

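The mean absolute changes moved by less than their SD over sites under all 27 settings tried (at least 30 reads, the median, sites with both alleles in P0). Counts of called Ect3 sites moved by over 1.5 times under the following. Called sites against P0 in D907 assimilated flies were 6 at 1e-08, 2 with effective reads and 76 with 5 kb added (18 as reported), and in D907 nonassimilated flies 1 with Benjamini-Hochberg (0). In Mix experiment 1 control flies Benjamini-Hochberg gave 19 (0). In its assimilated flies there were 2 at 1e-08, 30 with Benjamini-Hochberg, 1 with effective reads, 20 with 5 kb added and 8 against control in place of P0 (4), and in its nonassimilated flies 1, 34, 0 and 17 under the first 4 of these (5). In Mix experiment 2 control flies there were 0 at 1e-08, 37 with Benjamini-Hochberg, 0 with effective reads and 3 with 5 kb added (1). In its assimilated flies there were 42 with Benjamini-Hochberg, 14 with effective reads and 80 with 5 kb added (24), and in its nonassimilated flies 15 at 1e-08, 42, 15 and 82 (23). Fewer reads enter with effective reads and more sites with wider bounds; for the other settings only the threshold, the correction or the reference pool differs.

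Of the sites called in the same direction in both Mix experiments, the replicate block (experiments paired as strata) gave 1 for control, 13 for assimilated and 20 for nonassimilated flies (0, 2 and 5 as reported). Leaving out 1 experiment gave 0 to 1 for control, 4 to 22 for assimilated and 5 to 21 for nonassimilated flies, the higher value always without experiment 1. At 1e-08 the assimilated and nonassimilated counts were 1 and 1. The counts between assimilated and nonassimilated pools stayed within 1.5 times under all their alternatives. Keeping 1 site per run of sites within 10 bases, chosen after seeing the data, gave 16 in D907 assimilated flies and moved no count by over 1.5 times.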
